A study of Homo sapiens with 8 samples.

Results

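ID1, ID2, ID3 and ID4, which encode the ID proteins, and SMAD6, SMAD7, SKIL and BAMBI, which encode inhibitors of SMAD signalling, are 8 of the 17253 genes listed in 1 or more of the 8 RNA-seq libraries of the series. The 8 genes were chosen by name, with earlier results of these data known. Every transcript assembled in a library was given to the GENCODE gene on its strand that held at least 50% of its exonic bases, and the FPKM (fragments per kilobase of transcript, scaled to library size) of a gene is the sum over its transcripts. Assembled transcripts can run far outside a gene or stop short in it. The FPKM of every overlapping transcript was therefore also multiplied by the share of the gene's canonical exons that it covers. The sum of these is called the apportioned FPKM. It takes depth as even along a transcript, so a transcript that runs outside the gene still enters with the FPKM of its whole length.

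HepG2 is a human liver cancer cell line that keeps many hepatocyte genes active, and Hep3B is another line derived from a human hepatocellular carcinoma. In each line 1 library was made from cells treated with the combination of NaB, Cur and Pip, 1 from cells treated with NaB, 1 from cells treated with Cur and Pip, and 1 from untreated control cells, all harvested at 48 h. The methods describe no genetic modification of either line. NaB is sodium pentaborate pentahydrate, a boron salt, Cur is curcumin, a polyphenol of turmeric, and Pip is piperine, a pepper alkaloid given with Cur. HepG2 received 2500 µM NaB and Hep3B 1700 µM NaB, and both received 30 µM Cur with 6 µM Pip. The methods describe RNA isolated in triplicate, but there is 1 library per condition, so nothing can be tested within a line. The 95% Cufflinks intervals given below describe how well a level was estimated from 1 library, and they hold nothing of the variation from culture to culture.

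The libraries hold an estimated 25.6 to 35.7 M fragments, and 70.4 to 88.1% of the assembled transcripts could be given to a gene. Of 15 hepatocyte marker genes, 13 to 15 reached 1 FPKM in every HepG2 library, with a summed level of 6404 to 14785 FPKM, against 0 or 1 of 15 in each library labelled Hep3B, with a summed level of 0.456 to 4.40 FPKM. ALB, serum albumin, was listed at 2989, 7518 and 2998 FPKM in HepG2 after the combination, NaB, and Cur and Pip, and at 0 in the control. APOA2, an apolipoprotein, was listed at 764 FPKM after Cur and Pip in HepG2 and at 0 in the other HepG2 libraries. Such a 0 does not show absence, and unassigned transcripts over these genes were not examined. The summed levels carry these gaps. Among the libraries labelled Hep3B only the control listed it, at 1.98 FPKM. RB1, the retinoblastoma gene that Hep3B is known to lack, was at 8.82 to 21.1 FPKM in all 8 libraries, and at 8.89 to 21.1 FPKM in those labelled Hep3B. Of 8 fibroblast markers, 3 or 4 reached 1 FPKM in the libraries labelled Hep3B, and their summed level was 38.9, 86.0 and 61.1 FPKM after the combination, NaB, and Cur and Pip, against 305 FPKM in the control. LUM and DCN, which encode matrix proteoglycans, made up most of it, while COL1A2, PDGFRA and THY1 were listed at 0. The endothelial markers KDR, TEK, EMCN and ERG were listed at 0 in all 8 libraries, and the summed level of the 8 endothelial markers was at most 4.21 FPKM. The hepatocyte and RB1 values go against the label Hep3B, so those samples are called the cells labelled Hep3B throughout. Fewer cells of a type and less RNA per cell cannot be told apart in such bulk samples.

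Ligands of the TGF-β family bind paired receptor kinases, which phosphorylate SMAD2 and SMAD3 (TGF-β and activins) or SMAD1, SMAD5 and SMAD9 (BMPs), and these enter the nucleus with SMAD4. The ID genes are classical early targets of BMP signalling: ID proteins carry a helix-loop-helix domain but no DNA-binding region, and they hold E proteins such as TCF3 and TCF12 away from DNA. SMAD6, SMAD7, SKIL and BAMBI are induced by the same signals and act back on them. SMAD6 and SMAD7 are the inhibitory SMADs that block receptors, SKIL (also called SnoN) is a corepressor that binds SMAD complexes, and BAMBI is a pseudoreceptor without a kinase domain. In hepatocytes the BMP-SMAD route is best known for setting HAMP, the iron hormone hepcidin, together with ID1, SMAD6, SMAD7 and ATOH8.

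The start regions of the feedback genes that hold 1 or more of 3 motifs are shown. SKIL and BAMBI were higher in both NaB libraries of each line, as was SMAD7, and SMAD6 was not. Each sequence holds the 250 bases before a start, 5′ to 3′ on the gene's strand. Capitals mark GTCTAGAC (the palindromic SMAD-binding element), GGCGCC (the GC-rich element through which BMP-activated SMADs are known to bind) and TGACGTCA (the cAMP-response element). The SMAD6 (chr15:66701986-66702235, + strand), SKIL (chr3:170357465-170357714, + strand) and BAMBI (chr10:28677271-28677520, + strand) sequences are RefSeq promoters on GRCh38.p14.
SMAD6: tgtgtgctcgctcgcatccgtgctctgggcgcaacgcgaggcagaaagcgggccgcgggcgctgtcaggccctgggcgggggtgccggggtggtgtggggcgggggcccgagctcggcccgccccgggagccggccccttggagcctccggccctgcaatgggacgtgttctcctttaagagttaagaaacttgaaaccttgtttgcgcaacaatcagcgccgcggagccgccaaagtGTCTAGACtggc
SKIL: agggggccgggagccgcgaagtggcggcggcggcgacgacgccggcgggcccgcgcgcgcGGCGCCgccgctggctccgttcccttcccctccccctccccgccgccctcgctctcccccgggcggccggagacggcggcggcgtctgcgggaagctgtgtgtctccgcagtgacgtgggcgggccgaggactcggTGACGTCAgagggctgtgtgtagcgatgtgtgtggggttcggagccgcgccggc
BAMBI: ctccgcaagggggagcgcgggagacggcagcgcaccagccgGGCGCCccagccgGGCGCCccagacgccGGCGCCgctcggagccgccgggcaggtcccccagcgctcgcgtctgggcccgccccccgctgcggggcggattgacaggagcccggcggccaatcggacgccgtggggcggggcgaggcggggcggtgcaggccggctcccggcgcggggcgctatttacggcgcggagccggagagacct

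GTCTAGAC began 12 bases before the RefSeq start of SMAD6. It is found in 71 of the 35116 RefSeq promoter windows of 300 bases (250 before and 50 after each start), or 0.202%. GGCGCC began 209, 196 and 181 bases before the BAMBI start and 190 bases before the SKIL start, and 19.2% of the promoters hold it. TGACGTCA began 54 bases before the SKIL start, and 1.85% of the promoters hold it. The SKIL window begins at base 170357465, inside the GENCODE gene, which starts at 170357342. In every library the outermost SKIL transcript began before that window, at 170356940 to 170357448. The RefSeq windows of ID1, ID2, ID3 and ID4 held none of the 3, nor did the 3 RefSeq windows of SMAD7, which says only that these letters are not in those windows. All 3 motifs read the same on both strands, and none of the marked copies overlap.

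ID1 (chr20:31605283-31606515, + strand) was the most highly listed member in the HepG2 control. Its FPKM was 80.1 after the combination, 154 after NaB and 63.7 with Cur and Pip in HepG2, against 262 in the control. All 3 treated values lay below the control, and none of their intervals overlapped that of the control (249 to 276 FPKM). On the log2(FPKM + 1) scale the differences from control were −1.70, −0.76 and −2.03. Among the libraries labelled Hep3B, ID1 was listed at 0 after the combination, and at 125 FPKM after NaB and 156 FPKM after Cur and Pip, against 140.0 FPKM in the control.

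The 0 does not mean that reads were missing over ID1. In that library a 2-exon transcript of 2650 nt at 30.6 FPKM began 25 bases inside the annotated start, used the ID1 intron and ran 1681 bases past the annotated end, so that 36.6% of its bases lay in ID1 and it was given to no gene. The control transcript in the same cells was 972 nt long and ended 1 base past the gene. In the HepG2 combination library a second, unassigned transcript of 16 exons and 3518 nt at 35.5 FPKM began 90876 bases upstream, held 1606 bases of HM13 exons, and ended on the ID1 exons with 21.3% of its bases there. The apportioned FPKM of ID1 was 93.2, 149.9 and 62.8 in HepG2 after the combination, NaB, and Cur and Pip, against 158 in the control, with log2 differences of −0.76, −0.08 and −1.32. For the cells labelled Hep3B it was 29.995, 124 and 91.4, against 138 in the control, with log2 differences of −2.16, −0.15 and −0.58. By that measure ID1 lay below its control in all 6 comparisons, and both libraries with Cur and Pip lay below both libraries without it in each line. Of 8749 genes with an apportioned FPKM of at least 1 in all 8 libraries, 7.65% had that order. After Cur and Pip the cells labelled Hep3B held a 575-nt ID1 transcript that ended 396 bases short of the annotated end. Its summed FPKM of 156 lay above the control, so the order in those cells depends on the measure.

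**Figure D1:**
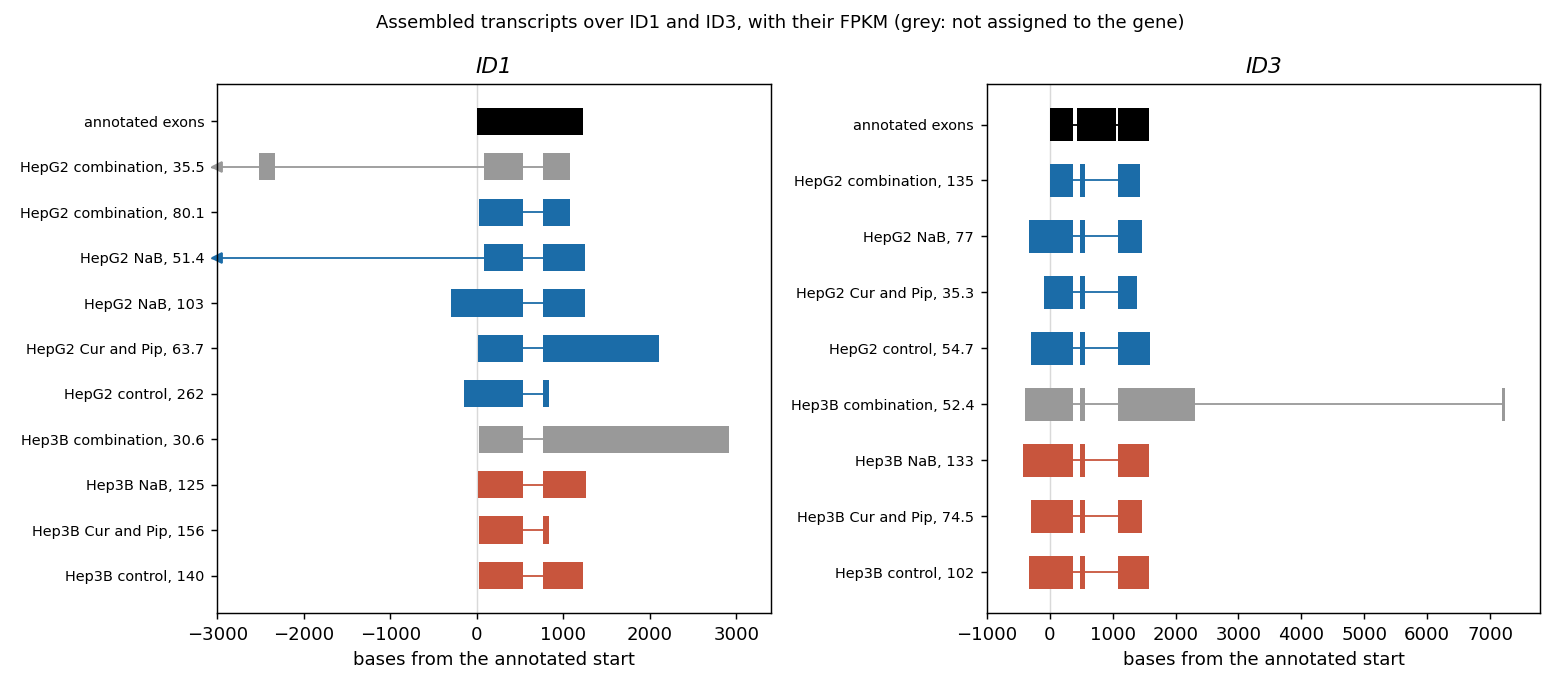
Transcripts assembled over ID1 (left) and ID3 (right) in each library, as exons (boxes) and introns (lines), by bases from the annotated start in the direction of transcription. The number beside each library is the FPKM of that transcript, grey transcripts were not assigned to the gene, and arrowheads mark exons further upstream. In the Hep3B combination library the transcripts at 30.6 FPKM (ID1) and 52.4 FPKM (ID3) run past the annotated ends, and both genes are listed at 0 there.

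The summed and apportioned levels of ID1 also moved with the length that was assembled, because FPKM divides by that length. In the cells labelled Hep3B the apportioned 29.995 FPKM after the combination came from a transcript of 2650 nt, against 972 nt in the control. The part of length in that difference was not tested. The HepG2 control transcript was 748 nt long and ended 395 bases short of the annotated end, whereas the transcript after Cur and Pip was 1846 nt long and ran 871 bases past it. The estimated fragments on assigned ID1 transcripts in HepG2 were 2073 after the combination, 6639 after NaB and 4531 after Cur and Pip, against 7545 in the control. The 50% limit passed close to several members. The ID1 transcript after Cur and Pip in HepG2 had 52.8% of its bases in the gene, and the SMAD7 transcript after Cur and Pip in the cells labelled Hep3B had 58.8%. An ID3 transcript with 44.7% and a second SMAD7 transcript with 44.8% fell outside it.

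ID3 (chr1:23557926-23559501, − strand) had an FPKM of 135 after the combination, 77.0 after NaB and 35.3 with Cur and Pip in HepG2, against 54.7 in the control. Both libraries with NaB were above both without it, and the 4 intervals did not overlap. The combination library of the cells labelled Hep3B listed it at 0, and it was at 133 FPKM after NaB and 74.5 FPKM after Cur and Pip, against 102 FPKM in the control. The 0 again stood beside an unassigned transcript, of 4 exons and 2127 nt at 52.4 FPKM, which ran 5668 bases past the annotated end. The apportioned FPKM was 114, 68.6 and 28.2 in HepG2, against 54.7 in the control, and 52.4, 133 and 66.6 in the cells labelled Hep3B, against 102 in the control. After the combination the apportioned ID3 level was thus above its control in HepG2 (log2 difference 1.04) and below it in the cells labelled Hep3B (−0.95). The second difference rests on the FPKM of the 2127-nt transcript, of which 950 bases lay in ID3, against a control transcript of 1282 nt. FPKM divides by the assembled length, and the part of length in that difference was not tested. The difference between the lines was not tested. With at least 80% of bases required in the gene, ID3 was listed at 0 in the HepG2 control, whose transcript had 75.2% of its bases there, and the difference after Cur and Pip in HepG2 turned to 5.18.

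ID2 (chr2:8678845-8684461, + strand) stood far higher in HepG2 than in the cells labelled Hep3B. In HepG2 its FPKM was 122 after the combination, 174 after NaB and 331 after Cur and Pip, against 165 in the control. Cells labelled Hep3B held 27.0 FPKM after the combination, 2.91 after NaB and 14.7 after Cur and Pip, against 1.14 FPKM in the control. The lowest HepG2 value was above the highest value of the cells labelled Hep3B. The HepG2 minus Hep3B difference was 4.57 ± 0.71 (SE) on the log2(FPKM + 1) scale over 4 libraries each, with an adjusted p of 0.0116 (limma, treatment as a covariate). ID2 was the only member of 8 called between the lines, where 24.7% of 15447 genes were called at an adjusted p under 0.05. With each of the 8 libraries left out in turn, the difference stayed between 4.01 and 5.39. The adjusted p was 0.0260 without either combination library, and it ran up to 0.0813 and lost the call without any 1 of the other 6.

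Within the cells labelled Hep3B the 4 ID2 intervals did not overlap, and the order from low to high was control, NaB, Cur and Pip, combination. The estimated fragments behind them were 1738 after the combination, 133 after NaB and 747 after Cur and Pip, against 53 in the control. The log2 differences were 3.71, 0.87 and 2.87, and apportioning moved them little (3.55, 0.86 and 2.76). Every ID2 transcript in those libraries had at least 92.9% of its bases in the gene. In HepG2, the 331 FPKM after Cur and Pip was the sum of 2 short transcripts of 740 and 484 nt. The shorter began 95263 bases upstream, and the apportioned FPKM was 105, 126 and 162 in the treated libraries, against 113 in the control.

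ID4 (chr6:19837370-19842197, + strand) was close to the limit of listing. It was at 1.55 FPKM after NaB in HepG2, against 1.23 FPKM in the HepG2 control, and these intervals overlapped (1.14 to 1.96 and 0.874 to 1.58 FPKM). The other 2 HepG2 libraries and all 4 labelled Hep3B listed it at 0. The HepG2 control value rested on 79 estimated fragments, so that a listing at 0 does not show absence.

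**Figure D2:**
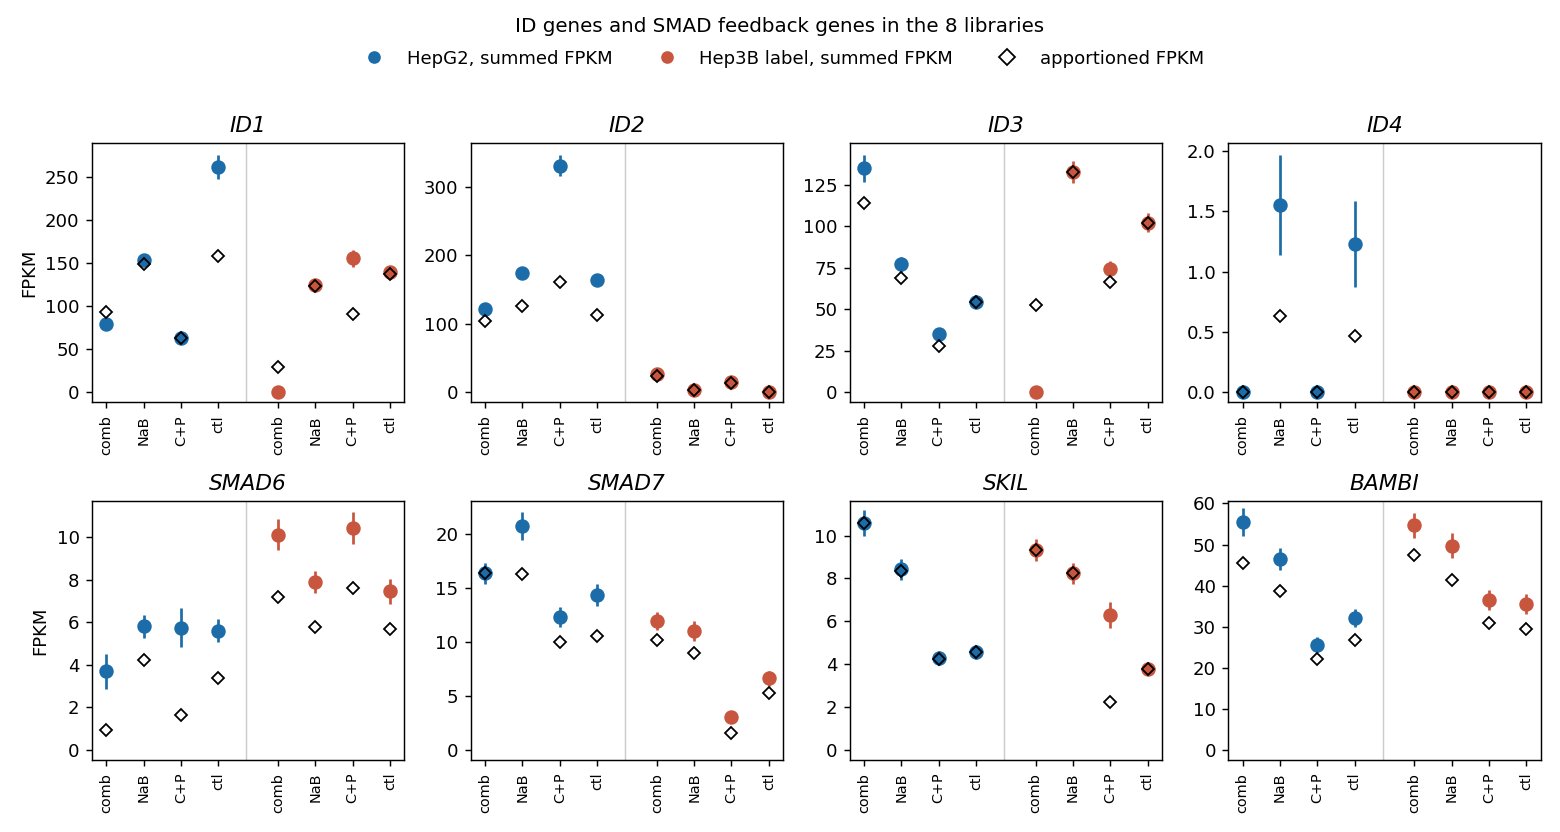
FPKM of the 8 genes in the 8 libraries (comb, combination; C+P, Cur and Pip; ctl, control), with HepG2 left and the cells labelled Hep3B right in each panel. Circles are the summed FPKM with the 95% Cufflinks interval of 1 library as a bar, and diamonds are the apportioned FPKM. SKIL and BAMBI are higher in the combination and NaB libraries than in the other 2 libraries of each line, and ID1 and ID3 are listed at 0 in the Hep3B combination library while their diamonds stand at 29.995 and 52.4 FPKM.

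SMAD7, SKIL and BAMBI shared an order in both lines. Both libraries that received NaB were above both that did not, by summed and by apportioned FPKM. This order was seen after the values were known. It held for 3 of the 5 members with at least 1 FPKM in all 8 libraries (ID2, SMAD6, SMAD7, SKIL and BAMBI), and for 4.63% of the 7857 genes that passed the same filter. By apportioned FPKM 6 members passed (ID1 and ID3 in, SMAD6 out), and the order held for the same 3 and for 4.77% of 8749 genes. By summed FPKM none of the 5 had the opposite order for NaB (6.08% of genes), and none was above (8.53%) or below (7.23%) for Cur and Pip in both lines. The NaB dose differed between the lines, and the 4 comparisons with NaB share 1 control per line.

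SKIL (chr3:170357342-170396835, + strand) had an FPKM of 10.6 after the combination, 8.42 after NaB and 4.29 with Cur and Pip in HepG2, against 4.57 in the control. The cells labelled Hep3B had 9.33, 8.24 and 6.30 FPKM, against 3.80 FPKM in the control. The log2 differences after the combination and NaB were 1.06 and 0.76 in HepG2, and 1.11 and 0.95 in the cells labelled Hep3B, with intervals that did not overlap the control. After Cur and Pip the cells labelled Hep3B gave a log2 difference of 0.61 by summed FPKM but −0.56 by apportioned FPKM, and both transcripts there ended 4501 bases short of the annotated end. Over both lines, SKIL differed after the combination by 1.08 ± 0.33 (SE) with an adjusted p of 0.416, and after NaB by 0.85 ± 0.33 (SE) with an adjusted p of 0.898 (limma, 8 libraries, higher in both lines).

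BAMBI (chr10:28677510-28682932, + strand) had an FPKM of 55.4 after the combination, 46.5 after NaB and 25.7 with Cur and Pip in HepG2, against 32.2 in the control. Cells labelled Hep3B had it at 54.7, 49.7 and 36.6 FPKM, against 35.5 FPKM in the control. The intervals of the 2 lines overlapped in every condition but Cur and Pip, and the HepG2 minus Hep3B difference was −0.18 ± 0.22 (SE) with an adjusted p of 0.557 (limma). The log2 differences after the combination and NaB were 0.77 and 0.52 in HepG2, and 0.61 and 0.47 in the cells labelled Hep3B. After Cur and Pip they were −0.32 in HepG2 and 0.04 in the cells labelled Hep3B, where the interval overlapped that of the control.

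SMAD7 (chr18:48919853-48950965, − strand) had an FPKM of 16.4 after the combination, 20.8 after NaB and 12.3 with Cur and Pip in HepG2, against 14.4 in the control. Its level in the cells labelled Hep3B was 11.9, 10.99 and 3.08 FPKM, against 6.64 FPKM in the control. The interval after the combination in HepG2 overlapped that of the control, and the others did not. The log2 differences after the combination and NaB were 0.18 and 0.50 in HepG2, and 0.76 and 0.65 in the cells labelled Hep3B. After Cur and Pip they were −0.21 in HepG2 and −0.90 in the cells labelled Hep3B, the second of which was 0.08 by the largest transcript alone. The HepG2 minus Hep3B difference was 1.00002 ± 0.28 (SE) with an adjusted p of 0.0582, and 1.10 ± 0.31 (SE) with an adjusted p of 0.0464 by apportioned FPKM (limma, higher in HepG2 in each of the 4 conditions).

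The make-up of SMAD7 also differed between libraries. Transcripts that began upstream of the annotated start summed to 16.4, 15.6 and 5.88 FPKM in HepG2 after the combination, NaB, and Cur and Pip, against 5.59 FPKM in the control. Among the cells labelled Hep3B they summed to 5.93, 4.55 and 3.08 FPKM, against 2.75 FPKM in the control. Short transcripts that began over 8 kb inside the gene were at 0, 5.20 and 6.44 FPKM in HepG2, against 8.77 FPKM in the control, and only the control held one among the cells labelled Hep3B, at 2.87 FPKM. Transcripts that began 316 to 1640 bases inside the gene were assembled in those cells alone, at 5.996 FPKM after the combination, 6.44 FPKM after NaB and 0 after Cur and Pip, against 1.02 FPKM in the control. The upstream transcripts had 58.8 to 76.1% of their bases in the annotated gene, so that requiring 80% removed them and the log2 differences in HepG2 became −3.29 after the combination and −0.66 after NaB. Cufflinks divides reads between such overlapping transcripts, and how well it did so here was not tested.

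SMAD6 (chr15:66702236-66782849, + strand) was at 3.69 FPKM after the combination, 5.80 FPKM after NaB and 5.73 FPKM with Cur and Pip in HepG2, against 5.60 FPKM in the control. Cells labelled Hep3B held 10.1, 7.87 and 10.4 FPKM, against 7.45 FPKM in the control. There both libraries with Cur and Pip were above both without it, with log2 differences of 0.40 after the combination and 0.44 after Cur and Pip, which were −0.17 and −0.36 when only the largest transcript was counted. In HepG2 the 2 libraries with Cur and Pip held SMAD6 transcripts that began about 120 kb upstream, at 120048 to 120121 bases, with 59 to 264 bases on exons of LINC01169. The apportioned FPKM in HepG2 was 0.958, 4.22 and 1.65 after the combination, NaB, and Cur and Pip, against 3.38 in the control. SMAD6 thus differed by −0.49 after the combination and 0.03 after Cur and Pip by summed FPKM, and by −1.16 and −0.73 by apportioned FPKM. The HepG2 minus Hep3B difference was −0.69 ± 0.25 (SE) with an adjusted p of 0.112 (limma).

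Transcripts that left the annotated gene by over 5 kb were met at the members in 4 of the 6 treated libraries and in neither control. They lay over ID1 after NaB in HepG2, ID2 and SMAD6 after Cur and Pip in HepG2, ID1 and SMAD6 after the combination in HepG2, and ID3 and BAMBI after the combination in the cells labelled Hep3B. Over all protein-coding genes listed, the share with such a transcript was 3.32, 3.26 and 2.70% in HepG2 after the combination, NaB, and Cur and Pip, against 2.62% in the control. Among the libraries labelled Hep3B it was 3.82, 2.77 and 3.06%, against 3.13% in the control. These shares count only transcripts assigned to the gene. The transcripts over ID1 and ID3 after the combination were unassigned, so their like is not counted there. The share of single-exon transcripts moved with treatment as well, at 32.2, 22.7 and 34.1% in HepG2 against 16.4% in the control, and at 28.4, 19.1 and 22.4% in the cells labelled Hep3B against 14.7% in the control. The part of RNA quality, unspliced RNA or assembly in the members' values was not tested.

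Few members passed the fold threshold, an absolute log2 difference over 1.5. In HepG2 all 8 members were tested. After the combination 1 was lower, ID1, and 0 were higher, where 11.5% of 13431 genes were lower and 8.02% higher. After NaB 0 of 8 passed, where 5.06% of genes were lower and 4.7% higher. After Cur and Pip 1 was lower, ID1, and 0 were higher, where 10.2% of genes were lower and 8.98% higher. By apportioned FPKM neither ID1 value passed. Of the 8 members 7 were tested in the cells labelled Hep3B, since ID4 reached no level. After the combination 1 was higher, ID2, and 2 were lower, ID1 and ID3, both listed at 0, where 6.79% of 13347 genes were higher and 8.17% lower. After NaB 0 of 7 passed, where 4.97% of genes were higher and 7.01% lower. After Cur and Pip 1 was higher, ID2, and 0 were lower, where 6.44% of genes were higher and 3.95% lower. With 7 or 8 members a single gene sets each share, so none is read as a result about the group. The median log2 difference of the tested members was −0.13, 0.34 and −0.26 in HepG2 after the combination, NaB, and Cur and Pip, and 0.61, 0.47 and 0.16 in the cells labelled Hep3B. By apportioned FPKM the direction turned for Cur and Pip in the cells labelled Hep3B (−0.56). For the combination in HepG2 the apportioned median was 0.58 over 7 members, without ID4. The summed median of the same 7 was already above 0, at 0.18. Over all tested genes the medians were 0 for each treatment in HepG2, and −0.05, −0.12 and 0 in the cells labelled Hep3B.

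**Figure D3:**
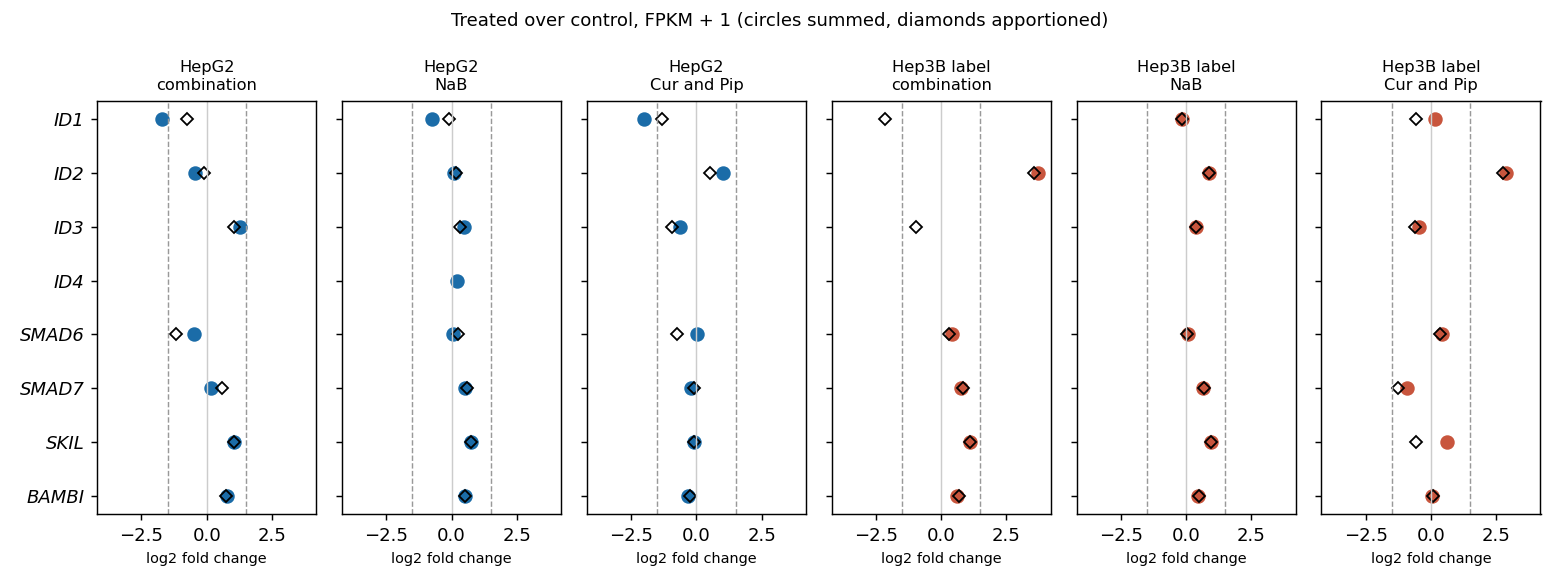
Log2 of (FPKM + 1) in the treated library over (FPKM + 1) in the control of the same line for the 8 genes. Circles are summed and diamonds apportioned FPKM, a circle is left out where the gene is listed at 0 in either library, and dashed lines mark the threshold of 1.5. ID2 after the combination (3.71) and after Cur and Pip (2.87) in the cells labelled Hep3B lies furthest to the right, and the ID1 circles and diamonds part after the combination and Cur and Pip in HepG2.

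No member was called for a treatment over both lines, in a fit where lines serve as the only replicates. Of 15447 genes, limma called 0.0712% for the combination, 0% for NaB and 0.0259% for Cur and Pip at an adjusted p under 0.05. Unadjusted p-values under 0.05 were met for 10.7, 4.7 and 5.93% of genes. Among the members only SKIL had one by summed FPKM, for the combination and for NaB, and by apportioned FPKM ID1 and BAMBI had one as well for the combination. With 3 residual degrees of freedom this fit counts every difference between the lines in response as spread.

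The ligands, receptors and SMADs around the members were measured in the same libraries. Of 28 TGF-β family ligand genes, 14 were tested in HepG2 and 12 in the cells labelled Hep3B. After the combination 1 was higher and 2 were lower in HepG2, and 1 was higher and 0 were lower in the cells labelled Hep3B. The median log2 differences of the ligands were −0.76 and −0.17, and those of all genes 0 and −0.05. TGFB1, the founding ligand, was listed at 0 after the combination in HepG2, against 58.6 FPKM in the control, and counts as lower with INHBE, although the 0 of ID1 and of ID3 stood beside unassigned transcripts. Of the ligands listed in both libraries 1 was lower in HepG2. The higher ligand in the cells labelled Hep3B was BMP6, listed at 0 in the control. GDF15, a stress-induced ligand, was at 1015 FPKM after the combination in HepG2, against 333 FPKM in the control, and at 1908 FPKM after Cur and Pip, while in the cells labelled Hep3B it was at 94.5 FPKM after the combination, against 130.2 FPKM. INHBE, an activin subunit made in liver, was at 1.34 FPKM after the combination, against 12.5 FPKM in the HepG2 control, and at 2.06 FPKM, against 6.92 FPKM, in the cells labelled Hep3B. BMP2, a BMP ligand, was at 34.8 FPKM after the combination in the cells labelled Hep3B, against 15.4 FPKM in their control, and it was listed at 0 in all HepG2 libraries.

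Among 17 receptor and co-receptor genes, 12 were tested in each line. After the combination 1 was lower and 0 were higher in HepG2, with 0 either way in the cells labelled Hep3B, and the medians were 0.10 and 0.17. By apportioned FPKM 1 was higher and 2 were lower among 11 tested in HepG2. TGFBR3 (betaglycan), a co-receptor that presents TGF-β2 to its receptors, was at 6.85 FPKM after the combination and 3.27 FPKM after Cur and Pip in HepG2, against 52.9 FPKM in the control. NaB alone left it at 34.2 FPKM. ACVR1, a type I receptor for BMPs, was at 23.8 FPKM after the combination in HepG2, against 9.65 FPKM in the control, and at 8.68 FPKM, against 2.59 FPKM, in the cells labelled Hep3B. TGFBR2, the type II TGF-β receptor, was at 7.19 FPKM after the combination in the cells labelled Hep3B, against 12.1 FPKM. Of 6 receptor SMADs and SMAD4, 0 of the 6 tested in HepG2 and 0 of the 5 tested in the cells labelled Hep3B passed the threshold after the combination, with medians of −0.02 and −0.50 that became 0.12 and 0.01 by apportioned FPKM. SMAD3 came closest, at 17.1 FPKM after the combination, 14.99 FPKM after NaB and 16.9 FPKM with Cur and Pip in HepG2, against 5.50 FPKM in the control. SMAD2 was at 11.4 FPKM, against 18.9 FPKM in the HepG2 control, but only −0.15 apart on the apportioned log2 scale. Among the cells labelled Hep3B, SMAD5 was at 10.4 against 8.92 FPKM and SMAD1 at 8.04 against 13.4 FPKM, and both differences changed sign when apportioned (−0.27 and 0.01).

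Of 14 other SMAD regulators, 13 were tested in HepG2, with 1 higher and 2 lower after the combination, and all 14 in the cells labelled Hep3B, with 0 either way, and the medians were −0.14 and 0.24. TGIF1, a corepressor of SMAD2 and SMAD3, was at 28.8 FPKM after the combination in HepG2, against 7.38 FPKM in the control. SMURF2, a ubiquitin ligase that works with SMAD7 on receptors, was at 16.7 FPKM, against 60.9 FPKM in the HepG2 control, and at 9.78 FPKM, against 4.64 FPKM, in the cells labelled Hep3B. STUB1 (CHIP), a ubiquitin ligase that acts on SMADs, was at 13.8 FPKM, against 60.1 FPKM in the HepG2 control, and at 44.6 FPKM, against 92.4 FPKM, in the cells labelled Hep3B. By apportioned FPKM only 1 regulator was lower after the combination in HepG2, STUB1 (−1.79). SMURF2 thus did not pass the threshold by that measure. PMEPA1, a further TGF-β-induced inhibitor of SMAD signalling, was at 8.54 FPKM after the combination and 8.35 FPKM after NaB in the cells labelled Hep3B, against 3.89 FPKM after Cur and Pip and 2.95 FPKM in the control. Of 16 extracellular antagonists, 4 were tested in each line, with 0 past the threshold after the combination in HepG2 and 2 lower in the cells labelled Hep3B, NOG and CHRDL2, the second listed at 0 against 4.32 FPKM. The medians were −0.27 and −1.27. NOG (noggin), which binds BMPs, was at 6.66, 24.5 and 10.9 FPKM in the cells labelled Hep3B after the combination, NaB, and Cur and Pip, against 30.4 FPKM in the control, and it was listed at 0 in HepG2. CHRD (chordin) was at 4.93 FPKM after the combination in HepG2, against 10.3 FPKM. TWSG1, a partner of chordin, was at 18.3 against 8.57 FPKM, but its apportioned log2 difference was −0.96. FSTL3, which binds activins, was at 176 FPKM after the combination in the cells labelled Hep3B, against 120.5 FPKM.

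The target genes of the pathway lay on both sides of their controls. Of 15 TGF-β target genes, 11 were tested in HepG2, with 2 higher and 3 lower after the combination, and 15 in the cells labelled Hep3B, with 2 higher and 0 lower, and the medians were −0.26 and −0.20, the first of which became 0.16 by apportioned FPKM. By summed FPKM those higher in HepG2 were SNAI1 and CCN2, and those lower TGFBI, TAGLN and FN1. SNAI1 and ANGPTL4 were higher in the cells labelled Hep3B. By apportioned FPKM 3 of 10 were higher and 2 lower in HepG2. Of 14 in the cells labelled Hep3B 1 was higher, SNAI1 (3.55), and 0 were lower. SNAI1, which encodes the transcription factor Snail, was at 38.6, 1.28 and 35.0 FPKM in HepG2 after the combination, NaB, and Cur and Pip, against 3.41 FPKM in the control. Cells labelled Hep3B had it at 26.2, 1.82 and 14.0 FPKM, against 1.10 FPKM in the control, the same order of the 4 libraries as ID2 in those cells. TGFBI, a matrix protein, was at 34.0 FPKM after the combination in HepG2, against 172 FPKM, and JUNB, an AP-1 subunit, was at 50.9 FPKM in the cells labelled Hep3B, against 115 FPKM, and at 45.2 FPKM, against 17.4 FPKM, in HepG2.

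Of 12 BMP target genes, 7 were tested in each line. After the combination 1 was higher and 1 lower in HepG2, and 0 were higher and 1 lower in the cells labelled Hep3B, with medians of 0.51 and 0.67. HAMP, hepcidin, was at 4.94, 143 and 11.5 FPKM in HepG2 after the combination, NaB, and Cur and Pip, against 72.3 FPKM in the control, and it was listed at 0 in all libraries labelled Hep3B. In HepG2, HAMP and ID1 were both lower than control after the combination and after Cur and Pip. Of the 15 hepatocyte markers, 7 and 6 were lower past the threshold in these libraries, and 1 and 2 were higher. Their medians were −1.45 and −1.27. Over all genes 11.5 and 10.2% were lower, and 8.02 and 8.98% higher. Whether HAMP moved apart from the hepatocyte markers was not tested. After NaB HAMP was higher, and ID1 was lower by summed FPKM. By apportioned FPKM ID1 after NaB was close to its control, at 149.9 against 158 (log2 difference −0.08). DLX2, a homeobox factor, was at 7.28 FPKM after the combination in HepG2, against 0.522 FPKM, and MSX1, another homeobox factor, was at 5.91 FPKM in the cells labelled Hep3B, against 1.92 FPKM. ATOH8, a helix-loop-helix factor, was at 1.69, 1.94 and 5.14 FPKM in the cells labelled Hep3B, against 13.5 FPKM in the control.

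Of the 3 E proteins that ID proteins bind, 2 were tested in each line and 0 passed the threshold after the combination, with medians of −0.64 and −0.38 that became −0.04 and 0.27 by apportioned FPKM. TCF3 was at 15.8, 30.5 and 16.7 FPKM in HepG2 after the combination, NaB, and Cur and Pip, against 32.5 FPKM in the control, and at 28.3, 57.5 and 28.3 FPKM in the cells labelled Hep3B, against 28.0 FPKM in the control. The apportioned log2 difference of TCF3 after the combination in HepG2 was −0.16, against −0.997 summed. TCF12 was at 11.2, 15.2 and 9.94 FPKM in HepG2, against 13.8 FPKM in the control, and at 10.3, 13.8 and 11.5 FPKM in the cells labelled Hep3B, against 18.4 FPKM in the control. Its difference after the combination in those cells was −0.78 summed and 0.43 apportioned. TCF4 was listed at 0 in all 8 libraries.

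**Figure D4:**
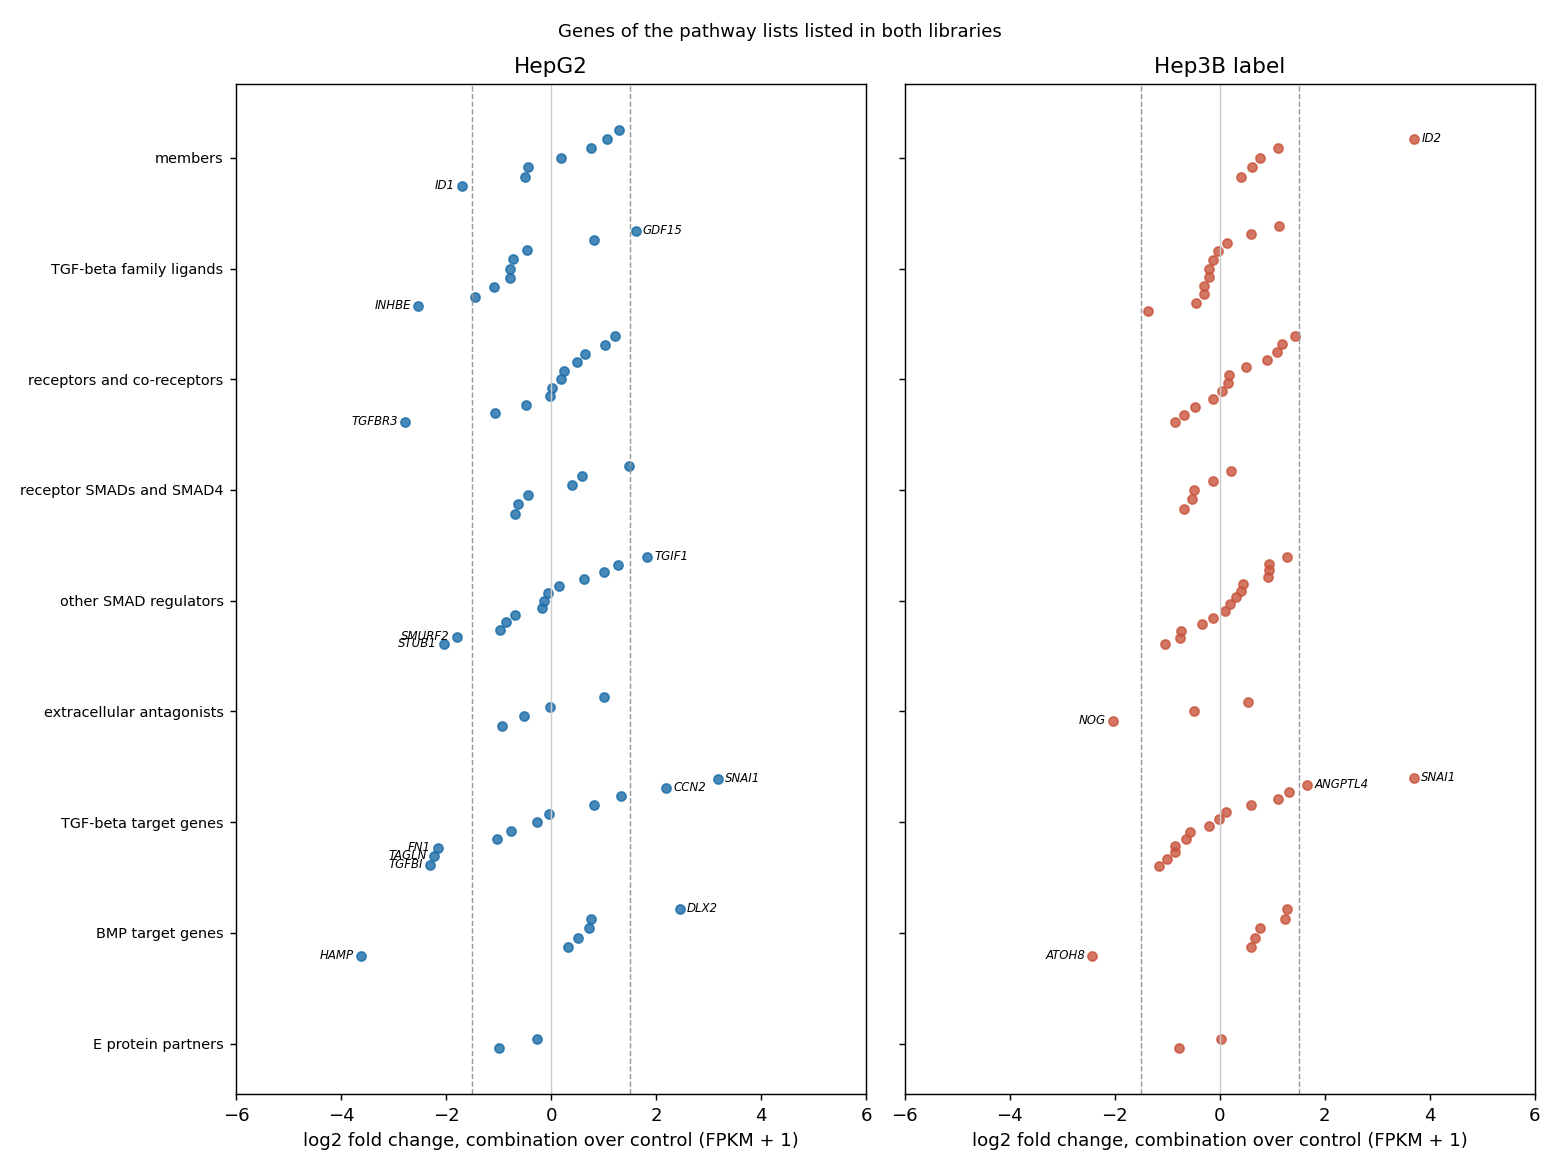
Log2 of (FPKM + 1) after the combination over (FPKM + 1) in the control for the genes of each pathway list with at least 1 FPKM in a library of the line and listed in both libraries, HepG2 left and the cells labelled Hep3B right. Each point is 1 gene, genes are spread vertically within a list by rank, dashed lines mark 1.5, and genes beyond it are named. SNAI1 stands highest in HepG2 (3.17) and next to ID2 (3.71) in the cells labelled Hep3B (3.70), and HAMP lowest in HepG2 (−3.62).

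Patterns of log2(FPKM + 1) over the 8 libraries were compared after each line was centred on its own mean. The summed ID1 pattern holds the listed 0 of the combination library labelled Hep3B. The genes most like ID1 were DDX39B, NDUFB9 and EEF1B2, with Pearson's r of 0.970, 0.965 and 0.962 among 7628 protein-coding genes. By apportioned FPKM they were ARPP19, JUP and LDHA, with r of 0.977, 0.963 and 0.962, none of them shared with the first 3. For SMAD7 they were RTL10, B4GALT1 and NEXN, with r of 0.945, 0.929 and 0.922, and by apportioned FPKM RBM38, GATAD1 and LRRC58, with r of 0.976, 0.965 and 0.962. These are the highest of 7627 to 8241 coefficients over 8 points that fall into 2 lines, and they are given as a description.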

How the data were processed

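RNA of 8 samples was sequenced on directional libraries (2 lines, 4 conditions, 1 library each). Reads were mapped to GRCh38 with STAR and transcripts assembled library by library with Cufflinks by the authors; FastQC and Cuffdiff are named in the submitters' processing notes as well, without a version in the sources used here. What they deposited is 1 FPKM per transcript, its 95% bounds and its coverage, with no gene names, which is a value of another kind than counts (other). No counts were read, so no count test was run.

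Transcripts were assigned with bedtools 2.31.1 to GENCODE release 44 genes on the same strand at 50% or more of their exonic bases. The interval of a gene is the root of the summed squares of its transcripts' half-widths, and estimated fragments are coverage times length over 300 bases. Apportioned FPKM is the sum of transcript FPKM times the share of the canonical exons covered. Differences are the log2 ratio of FPKM + 1, treated over control, for genes of at least 1 FPKM in 1 or more of the 4 libraries of a line, with the study's threshold of 1.5. A limma 3.58.1 fit (R 4.3.3) on log2(FPKM + 1), with line and treatment as terms, used all 8 libraries, and p-values were adjusted by Benjamini-Hochberg over 15447 genes. They measure the spread between single libraries. Python 3.11.15, numpy 2.4.6, pandas 2.3.3 and matplotlib 3.10.9 did the rest, and the fold and limma steps were tested on simulated data.

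The members and lists were chosen with earlier results of these data known. Named are all 8 members, the highest and lowest gene of each list after the combination in each line (listed in both libraries, at least 5 FPKM in 1 of them, intervals disjoint), TCF3, TCF4 and TCF12, the 3 protein-coding genes most like ID1 and SMAD7, and RB1 and ALB. HM13, LINC01169, the markers named one by one, TGFB1, TGFB2, BMP6, TGFBR1, BMPR2, ENG, SMURF2, CHRDL2, CCN2, TAGLN, FN1 and ANGPTL4 were added after their values were seen. A gene of the TGF-β target list and a start region are not reported here. Alternatives were pseudocounts of 0.1 and 5, other FPKM filters, median-of-ratios scaling, the largest transcript, transcripts under 300 nt left out, apportioning, 80% of bases, thresholds of 1 and 2, disjoint intervals, a trended variance and each library left out. Chosen after seeing the data were members listed in both libraries and the order of libraries with and without NaB or Cur and Pip, over both lines and in each line.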

Additional observations from a re-analysis of the deposited data

Results flagged for a closer look

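Transcripts that overlap a member on its strand but were assigned to no gene were met in treated libraries only, and none was met over these members in the controls of the same line. Over ID1 there was 1 at 35.5 FPKM after the combination in HepG2 and 1 at 30.6 FPKM after the combination in the cells labelled Hep3B. Over ID3 there was 1 at 52.4 FPKM after the combination in the cells labelled Hep3B. Over SMAD7 there was 1 of 5 exons at 0.754 FPKM after Cur and Pip in the cells labelled Hep3B, with 44.8% of its bases in SMAD7. Over SKIL there were single-exon transcripts of 747 to 1234 nt near the start of the gene, with at most 18.3% of their bases in annotated exons. They were at 1.504 FPKM after NaB in HepG2, at 1.29 FPKM after NaB and at 1.87 FPKM after the combination in the cells labelled Hep3B, so all 3 were in libraries that received NaB. What they are was not tested. In HepG2 70.5, 80.1 and 70.4% of all transcripts were assigned after the combination, NaB, and Cur and Pip, against 85.5% in the control. For the cells labelled Hep3B the shares were 77.1, 86.1 and 83.1%, against 88.1% in the control. Unassigned transcripts thus rose with treatment among all genes, so the pattern is not read as particular to the members. Whether the members differ from that background was not tested.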

How the results depend on the processing

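Counts of members past the fold threshold changed under several settings. After the combination in HepG2 the count of 1 became 2 at a pseudocount of 0.1, 0 by apportioned FPKM, 4 at 80% of bases, 4 at a threshold of 1 and 0 at a threshold of 2. After NaB in HepG2 it was 1 at 80% of bases. After Cur and Pip in HepG2 the count of 1 became 2 at a pseudocount of 0.1, 0 by apportioned FPKM, 2 at 80% of bases and 3 at a threshold of 1. In the cells labelled Hep3B the count of 3 after the combination became 2 by apportioned FPKM, 2 at 80% of bases, 4 at a threshold of 1, and 1 among members listed in both libraries, an alternative chosen after seeing the data, and the count of 1 after Cur and Pip became 2 at 80% of bases. At 80% of bases fewer transcripts are assigned, so members drop to 0 in single libraries. The count of 1 between the lines became 2 at a pseudocount of 5, with at least 1 FPKM in all 8 libraries and by apportioned FPKM, and ran from 0 to 1 when single libraries were left out. The counts of 0 for treatments over both lines stayed 0 under every alternative run. Of 306 recomputed log2 differences of single members, 239 moved by less than their Cufflinks interval, 67 moved by more. None of those past the threshold changed sign, but 13 smaller ones did, 5 of them at 80% of bases, where SMAD7 after the combination (−3.29) and ID3 after Cur and Pip (5.18) in HepG2 passed the threshold on the other side. Median-of-ratios factors were 0.925 to 1.06, and the median listed gene differed by −0.16 after NaB and −0.09 after the combination in the cells labelled Hep3B. With that scaling ID1 after NaB there differed by 0.03, against −0.16 without it. No paired analysis was possible because each condition has 1 library and no replicate number, other than the pairing by line that the limma fit already holds as a term. Members under about 2 FPKM, such as ID4, rest on few estimated fragments (96 after NaB and 79 in the control of HepG2), and differences in them are not resolved.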

Other observations

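In HepG2, 52 pathway genes had at least 1 FPKM in all 4 libraries of the line. Of these, 4 had both NaB libraries above the other 2 (7.69%, against 13.7% of 9245 genes). In 11 both were below (21.2%, against 12.8% of genes). Of 61 such genes in the cells labelled Hep3B, 14 had both NaB libraries above (23.0%, against 17.1% of 9690 genes). In 13 both were below (21.3%, against 31.8% of genes). In the cells labelled Hep3B the genes below include receptors and SMADs, such as TGFBR2, BMPR2, ENG and SMAD1, and the BMP target ATOH8. The receptor genes TGFBR1 and TGFBR3 were among the genes above, so the receptors lay on both sides. TGFBR2 was at 7.19 FPKM after the combination and 5.76 FPKM after NaB, against 9.45 FPKM after Cur and Pip and 12.1 FPKM in the control. The genes above also include PMEPA1 and the following 3, and all were chosen after their values were seen. BMP2 was at 34.8 FPKM after the combination and 47.7 FPKM after NaB, against 16.3 FPKM after Cur and Pip and 15.4 FPKM in the control. TGFB2 was at 5.14 and 10.1 FPKM, against 2.65 and 3.07 FPKM, and FSTL3 at 176 and 292 FPKM, against 92.7 and 120.5 FPKM. BMP6, the BMP that is best known for inducing HAMP, was at 14.7, 18.0 and 14.4 FPKM in the cells labelled Hep3B after the combination, NaB, and Cur and Pip, and was listed at 0 in their control. FN1, fibronectin, was at 315, 825 and 449 FPKM in HepG2, against 1416 FPKM in the control, and CCN2, a matricellular protein, was at 188, 28.8 and 71.2 FPKM, against 40.4 FPKM in the control.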
